A study of Homo sapiens with 10 samples.

Results

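A set of 10 genes around the interleukin-6 (IL-6) family of cytokines and the receptor for granulocyte-macrophage colony-stimulating factor (GM-CSF) was described in PANC-1 cells with and without silencing of PAR1. They are the cytokine genes IL6, IL11 and LIF, the receptor genes IL6R, IL6ST, LIFR, OSMR and CSF2RA, the transcription factor gene STAT3 and its feedback inhibitor gene SOCS3. CSF2RA was chosen by its measured fall in these same libraries, so its values are given without a test, and the other 9 genes were chosen by family. Of the 10 genes, 9 had expression values out of 27884 genes listed, and all 9 passed the filter on low values that left 17518 genes. IL6 itself was not analysed here.

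PANC-1 is an established human pancreatic ductal adenocarcinoma cell line. In the 5 shPAR1 libraries a lentivirus had delivered a short hairpin against F2R, the gene for protease-activated receptor 1 (PAR1), and in the 5 shCtrl libraries it had delivered a control hairpin. A single hairpin (clone TRCN0000003690) and a single control (clone shc004) were used, all cells had been selected with puromycin, and whether the libraries were separate cultures is not stated, so the p-values measure the spread between these libraries, which may be technical. The libraries were numbered 1 to 5 for shPAR1 and 6 to 10 for shCtrl.

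Cytokines of the IL-6 family share gp130, the signalling chain that IL6ST encodes, and each binds gp130 together with 1 or more partner chains. IL-6 and IL-11 use the binding chains IL6R and IL11RA, LIF uses LIFR, and oncostatin M uses OSMR or LIFR. Ligand binding brings Janus kinases (JAKs) together, which phosphorylate STAT3, and STAT3 then switches on genes that include SOCS3, whose protein binds gp130 and JAKs and damps the signal. The GM-CSF receptor is a separate complex of CSF2RA, which binds the ligand, and the common beta chain CSF2RB, and it signals mainly through JAK2 and STAT5. In the pancreas, IL-6 and LIF act on acinar and tumour cells during inflammation and carcinogenesis, and fibroblasts are a known source of both ligands.

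Total counts ranged from 15335264 to 22876248 in shPAR1 and from 18317098 to 25369056 in shCtrl libraries. F2R was lower in every shPAR1 library (10.18 to 10.32) than in any shCtrl library (11.75 to 11.82), a difference of -1.56 (standard error 0.040, limma, adjusted p = 7.69e-15). Mitochondrially encoded genes held 7.37% to 9.08% of a shPAR1 library and 5.71% to 7.07% of a shCtrl library. Markers of other cell types were low or mixed: the leukocyte and macrophage markers, analysed for 5 of 11 genes, summed to 1.76 to 2.64 CPM (counts relative to the library total) in shPAR1 and 1.55 to 2.07 CPM in shCtrl, and the endothelial markers, analysed for 3 of 5 genes, to 0.285 to 0.587 and 0.207 to 0.457 CPM. PTPRC, the pan-leukocyte marker, had 7 counts in total in each group. Fibroblast markers, analysed for 5 of 9 genes, summed to 331 to 397 CPM in shPAR1 and 287 to 324 CPM in shCtrl. Among them COL3A1 (5.28) and PDGFRB (0.37) rose, while ACTA2 (-0.97), THY1 (-0.76) and COL1A1 (-0.43) fell. All 8 ductal epithelial markers were present, with sums of 2110 to 2369 CPM in shPAR1 and 2914 to 3156 CPM in shCtrl, where CDH1 (1.04) and MUC1 (0.43) rose and KRT19 (-0.82), EPCAM (-0.78) and KRT18 (-0.35) were among the 5 that fell. The part of these shifts in the values below was not tested.

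In PAR1-silenced cells the receptor genes OSMR and LIFR and the transducer STAT3 were higher, the ligand LIF, the IL-6 binding chain IL6R and the inhibitor SOCS3 were lower, and the shared chain IL6ST and the ligand IL11 did not pass the test. Levels are log2(normalized count + 1) and differences are shPAR1 minus shCtrl on that scale, unless another scale is named. Of the 8 tested genes other than CSF2RA, 3 rose and 3 fell at an adjusted p under 0.05 (limma, Benjamini-Hochberg over 17518 genes). Over all tested genes 40.9% passed, 19.0% upwards and 21.9% downwards. The median difference was -0.083 over these 8 genes and -0.0046 over all genes. Libraries of both groups did not overlap for 5 of the 8 genes (LIF, LIFR, OSMR, STAT3 and SOCS3), against 29.2% of all tested genes. Each of the 6 calls stayed past the threshold in 17 alternative analyses. In bulk RNA of this kind, fewer cells that express a gene and less RNA per cell cannot be told apart.

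**Figure D1:**
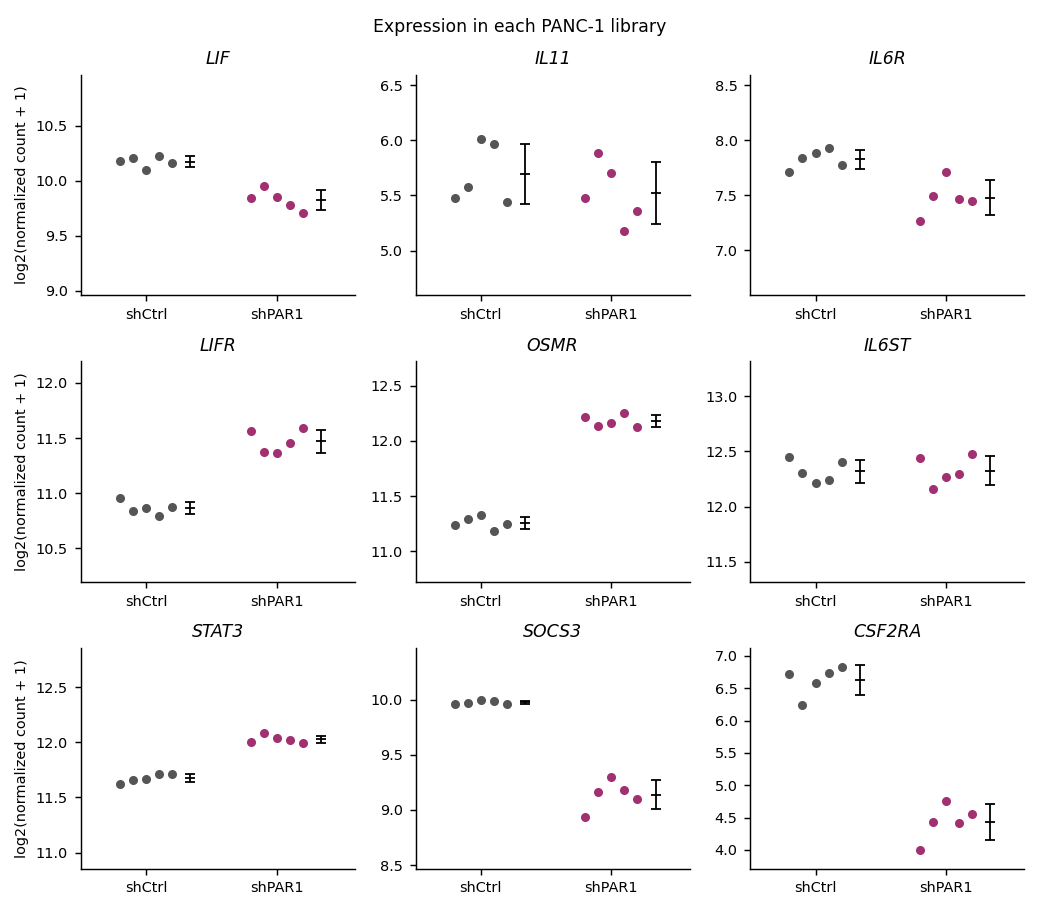
Expression of 9 genes in each library, as log2(normalized count + 1) on the vertical axis, with 1 point for each of the 5 shCtrl (grey) and 5 shPAR1 (purple) libraries in order of library number and a bar for mean and SD. OSMR, LIFR and STAT3 lie higher and SOCS3, LIF and CSF2RA lower in all shPAR1 libraries, and the points of IL6ST, IL11 and IL6R overlap between groups.

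Among the cytokines, LIF, the leukaemia inhibitory factor, lies on chromosome 22 (30240453 to 30246759, minus strand, GRCh38). Its level was 9.84, 9.95, 9.85, 9.78 and 9.70 in shPAR1 libraries 1 to 5 and 10.18, 10.20, 10.10, 10.22 and 10.16 in shCtrl libraries 6 to 10. Every shPAR1 library lay below every shCtrl library. LIF fell by 0.35 (95% confidence interval -0.45 to -0.24, standard error 0.051, limma, adjusted p = 2.38e-05). Its mean normalized count was 21.3% lower. The antisense genes LIF-AS1 and LIF-AS2 share 86 and 83 exonic bases with LIF, 2.22% and 2.14% of its exons, and whether counting used the strand is not stated. LIF-AS1 summed to 22 counts in shPAR1 and 73 in shCtrl and LIF-AS2 to 160 and 168, against 4339 and 6243 for LIF.

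IL11, a cytokine that signals through IL11RA and gp130 (chromosome 19, 55364382 to 55370463, minus strand), was expressed at a low level, with 33 to 68 counts in a shPAR1 library and 48 to 61 in a shCtrl library. Its level was 5.48, 5.89, 5.70, 5.18 and 5.36 in shPAR1 libraries and 5.48, 5.58, 6.01, 5.97 and 5.44 in shCtrl libraries. The groups overlapped over most of their range. The difference of -0.17 did not pass the test (95% confidence interval -0.52 to 0.17, adjusted p = 0.43), and an interval of this width does not show that the levels were alike. CLCF1, a ligand of the CNTF receptor, fell by 0.68 (standard error 0.11, adjusted p = 0.000103), with 64 to 118 counts in a shPAR1 library and 138 to 205 in a shCtrl library. Over the 5 tested genes of the 10 listed as gp130-family cytokines, 2 fell (LIF and CLCF1), none rose and 3 did not pass. The share over all tested genes was 40.9% in either direction, 19.0% upwards and 21.9% downwards. The counts of OSM, the oncostatin M gene, were 16 in all shPAR1 and 12 in all shCtrl libraries, which left it below the filter. EBI3 and IL31 were also below it. IL31 is listed with the family, though the receptor of IL-31 pairs IL31RA with OSMR and not with gp130. IL27 was not analysed here.

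The receptor chains for oncostatin M and LIF were the members that rose most. OSMR, the oncostatin M receptor chain, lies on chromosome 5 (38845858 to 38945596, plus strand), and its level was 12.21, 12.14, 12.16, 12.26 and 12.13 in shPAR1 libraries and 11.24, 11.29, 11.33, 11.19 and 11.24 in shCtrl libraries. The lowest shPAR1 library lay far above the highest shCtrl library, and both groups were narrow (SD 0.054 and 0.055, n = 5 each). OSMR rose by 0.92 (95% confidence interval 0.84 to 1.01, standard error 0.041, adjusted p = 4.97e-12 from limma), an increase of 89.7% in the mean normalized count. Of the 17518 tested genes, 424 rose at least as much. RICTOR shares 229 bases with OSMR exons on the opposite strand, 3.19% of those exons, and summed to 3698 counts in shPAR1 and 3647 in shCtrl against 22070 and 13227 for OSMR.

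LIFR, the receptor chain that LIF binds, lies beside OSMR on the minus strand of the same chromosome (38474668 to 38608354). Its level was 11.56, 11.37, 11.36, 11.46 and 11.60 in shPAR1 libraries and 10.95, 10.84, 10.86, 10.80 and 10.87 in shCtrl libraries. The groups did not overlap, and libraries 1 and 5 of shPAR1 and 6 and 10 of shCtrl were the highest of their groups. LIFR rose by 0.60 (95% confidence interval 0.50 to 0.71, standard error 0.051, adjusted p = 2.97e-08), or 52.4% in the mean normalized count. The antisense gene LIFR-AS1 held 50 counts in each group, against 13493 and 10100 for LIFR.

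LIFR was also the only matched member with promoter windows that held the palindromic STAT motif TTCNNNGAA, and its 2 windows with a match are printed for that reason together with its rise. The windows are the 250 bases before a transcription start in RefSeq (GRCh38.p14), and 12 starts of 9 members were matched, without LIF. Since the motif is its own reverse complement, one search covers both strands. It was present in 2 of the 12 starts, both of LIFR, and in 6.57% of 34961 promoters of the same length (5.31% of 11514 promoters when 1 was taken for each tested gene). The third LIFR start (chr5:38556647-38556896, minus strand) had a window of 83.6% G and C without a match. In the sequences below, read 5′ to 3′ on the gene's strand, capitals mark the match, which begins 165 bases before the first start and 182 bases before the second. Absence of a match elsewhere says only that these letters are not in that window.
LIFR, first start (chr5:38595406-38595655, minus strand): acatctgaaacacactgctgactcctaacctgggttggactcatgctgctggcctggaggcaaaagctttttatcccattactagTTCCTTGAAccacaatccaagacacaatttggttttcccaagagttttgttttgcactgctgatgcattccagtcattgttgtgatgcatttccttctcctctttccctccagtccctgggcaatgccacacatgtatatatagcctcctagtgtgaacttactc
LIFR, second start (chr5:38557468-38557717, minus strand): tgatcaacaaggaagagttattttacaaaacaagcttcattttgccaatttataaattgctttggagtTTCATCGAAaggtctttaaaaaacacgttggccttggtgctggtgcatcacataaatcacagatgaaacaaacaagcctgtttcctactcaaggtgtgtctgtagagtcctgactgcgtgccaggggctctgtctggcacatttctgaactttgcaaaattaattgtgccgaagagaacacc

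IL6ST, which encodes gp130 itself (chromosome 5, 55935095 to 55995022, minus strand), did not pass the test, and per length it was the most abundant receptor transcript of the family in shCtrl cells. Its level was 12.44, 12.16, 12.26, 12.30 and 12.47 in shPAR1 libraries and 12.45, 12.30, 12.21, 12.24 and 12.40 in shCtrl libraries. The groups covered the same range, and as for LIFR libraries 1, 5, 6 and 10 were the highest of their groups. The difference was 0.0074 (95% confidence interval -0.12 to 0.13, adjusted p = 0.936), with 4338 to 6896 counts per library. Its processed pseudogene IL6STP1 held 31 counts over all 10 libraries.

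IL6R, the chain that binds IL-6 and lies on chromosome 1 (154405193 to 154469450, plus strand), stood at 7.27, 7.50, 7.71, 7.47 and 7.45 in shPAR1 libraries and 7.71, 7.84, 7.89, 7.93 and 7.78 in shCtrl libraries. The groups met at one point, where library 3 of shPAR1 reached the level of library 6 of shCtrl, and the other 4 shPAR1 libraries lay below all shCtrl libraries. IL6R fell by 0.35 (95% confidence interval -0.53 to -0.17, standard error 0.084, adjusted p = 0.00264). In the mean normalized count this was 21.3% lower.

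Across 8 genes for gp130-family receptor chains, 4 rose, 3 fell and 1 (IL6ST) did not pass. The share that passed over all tested genes was 40.9%. Beside OSMR and LIFR, IL27RA, the IL-27 binding chain (0.46, standard error 0.060), and IL11RA (0.33, standard error 0.077) rose. IL31RA, which pairs with OSMR to bind IL-31, fell by 0.96 (standard error 0.087, adjusted p = 7.48e-08), with shCtrl libraries at 8.32 to 8.47 and shPAR1 libraries at 7.18 to 7.65. CNTFR, the ciliary neurotrophic factor receptor, fell by 0.65 (standard error 0.17). The median difference of the 8 genes was 0.17.

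The order of the receptor chains was compared per length, in TPM (counts per kilobase of exon, rescaled to the same total in every library). Length was that of all annotated exons of a gene, not of the transcripts expressed, and the order depends on it. In shCtrl cells IL6ST stood highest at 71.8 ± 4.3 (SD, n = 5), above OSMR at 57.8 ± 3.2, IL27RA at 44.2 ± 5.3 and LIFR at 26.0 ± 0.98, and none of these neighbours overlapped. In shPAR1 cells OSMR stood highest at 107 ± 9.3 without overlap to IL6ST at 70.7 ± 9.3, whose range met that of IL27RA at 59.0 ± 6.4, and LIFR followed at 38.6 ± 4.6. The other chains lay far lower in both groups. IL11RA was at 8.08 ± 0.89 in shPAR1 and 6.61 ± 1.06 in shCtrl, IL6R at 4.20 ± 0.43 and 5.51 ± 0.68, CNTFR at 3.58 ± 1.08 and 5.67 ± 0.95, and IL31RA at 2.47 ± 0.45 and 4.91 ± 0.34. The neighbours IL11RA, CNTFR, IL6R and IL31RA overlapped in shCtrl, and IL6R, CNTFR and IL31RA in shPAR1 cells.

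Ratios within a library remove its depth. The ratio of OSMR to IL6ST in TPM was 1.32 to 1.65 in shPAR1 and 0.728 to 0.913 in shCtrl libraries. On this scale OSMR exceeded IL6ST in every shPAR1 library and in no shCtrl library. By counts, without scaling to length, IL6ST was higher than OSMR in both groups (24404 against 22070 in shPAR1, 27850 against 13227 in shCtrl). The ratio of LIFR to IL6ST was 0.548 ± 0.018 (SD, n = 5) in shPAR1 and 0.362 ± 0.018 in shCtrl, again without overlap. OSMR to LIFR was 2.78 ± 0.22 and 2.23 ± 0.11 without overlap, whereas the ratio of IL6R to IL6ST (0.0603 ± 0.011 and 0.0768 ± 0.0097) overlapped between groups. Transcript levels of this kind do not measure receptor protein at the cell surface.

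**Figure D2:**
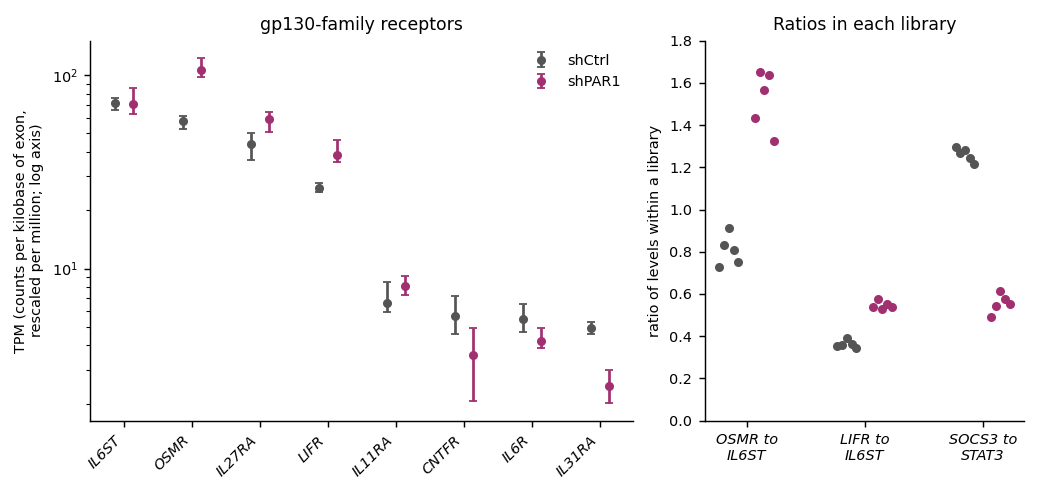
Left, TPM (counts per kilobase of exon on a common total, log axis) of 8 gp130-family receptor genes, as the mean of 5 libraries with bars from the lowest to the highest library, in shCtrl (grey) and shPAR1 (purple) cells. Right, the ratio of 2 levels in each of the 10 libraries, where OSMR to IL6ST (1.32 to 1.65 against 0.728 to 0.913) and LIFR to IL6ST are higher and SOCS3 to STAT3 is lower in shPAR1 than in shCtrl libraries.

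CSF2RA, the ligand-binding chain of the GM-CSF receptor, was expressed at a low level in both groups. Its level was 3.99, 4.43, 4.76, 4.41 and 4.56 in shPAR1 libraries and 6.72, 6.24, 6.58, 6.74 and 6.83 in shCtrl libraries. These values rest on 12, 24, 23, 19 and 22 counts in libraries 1 to 5 and on 115, 83, 88, 105 and 144 counts in libraries 6 to 10. No shPAR1 library came near the shCtrl range. The difference was -2.19, or 78.8% in the mean normalized count, and 27 of the 17518 tested genes had a fall at least as large. As the gene was picked for this fall, no test is attached to it. Without each library in turn, the difference ranged from -2.29 to -2.08. CSF2RA is known mainly from myeloid cells. It had 535 counts in all shCtrl and 100 in all shPAR1 libraries. The myeloid markers CD14 (80 and 76 counts), CSF1R (65 and 72), ITGAM (26 and 29) and CD68 (19 and 25) had fewer in both groups.

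The promoter window of CSF2RA, whose difference was the largest of the 9 genes, had no match to the motif and is printed to show its base composition, 52.8% G and C with runs of alternating t and g.
CSF2RA (chrX:1268564-1268813, plus strand): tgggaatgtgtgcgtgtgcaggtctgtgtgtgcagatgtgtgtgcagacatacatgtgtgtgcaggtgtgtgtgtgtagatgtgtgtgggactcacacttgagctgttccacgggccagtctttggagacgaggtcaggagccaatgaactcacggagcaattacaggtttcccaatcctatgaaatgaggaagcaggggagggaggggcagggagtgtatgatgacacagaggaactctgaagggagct

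The other parts of the GM-CSF, IL-3 and IL-5 receptor family gave little to compare. IL3RA, the IL-3 binding chain, had 17 to 33 counts per shPAR1 library and 24 to 42 per shCtrl library, and its difference of -0.41 did not pass (95% confidence interval -0.80 to -0.012, adjusted p = 0.0932). It was called lower under quantile normalization and without library 2. IL5 and IL5RA lay below the filter, with 2 and 8 counts in all shPAR1 libraries and 8 and 2 in all shCtrl libraries. CSF2, IL3 and CSF2RB were not analysed here, so whether the signalling chain of the receptor was present was not tested.

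CSF2RA lies in the pseudoautosomal region (chromosome X, 1268800 to 1310381, plus strand), which has the same coordinates on chromosome Y in this assembly, and the values here are those of the X copy's identifier. The genes listed for this region are not all of its tested genes. Of the 11 listed and tested genes other than CSF2RA, 6 fell, none rose and 5 did not pass, with a median difference of -0.15. Of all tested genes 21.9% fell and 19.0% rose, and their median was -0.0046. Whether the region fell as a whole was not tested. CRLF2, the receptor chain for thymic stromal lymphopoietin, lies 78.3 kb from CSF2RA by lowest coordinate and fell by 1.24 (standard error 0.13, adjusted p = 8.18e-07). Its level was 5.52, 5.37, 5.31, 5.34 and 5.21 in shPAR1 and 6.80, 6.26, 6.72, 6.81 and 6.33 in shCtrl libraries, without overlap. GTPBP6, a predicted GTP-binding protein (-0.42, standard error 0.057), and PPP2R3B, a regulatory subunit of protein phosphatase 2A (-0.38, standard error 0.068), fell at a distance of 964 kb and 935 kb. On the other side IL3RA was the nearest listed gene, 67.8 kb away. Its difference of -0.41 did not pass (limma, adjusted p = 0.0932). SLC25A6 and ASMTL, 117 kb and 134 kb away on that side, had differences of -0.061 and -0.060 that did not pass either. The other 10 tested genes of the list had differences between -0.42 and 0.021. Tested genes of the region outside the list included LINC00106 (0.094) and ASMTL-AS1 (0.13), which did not pass.

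**Figure D3:**
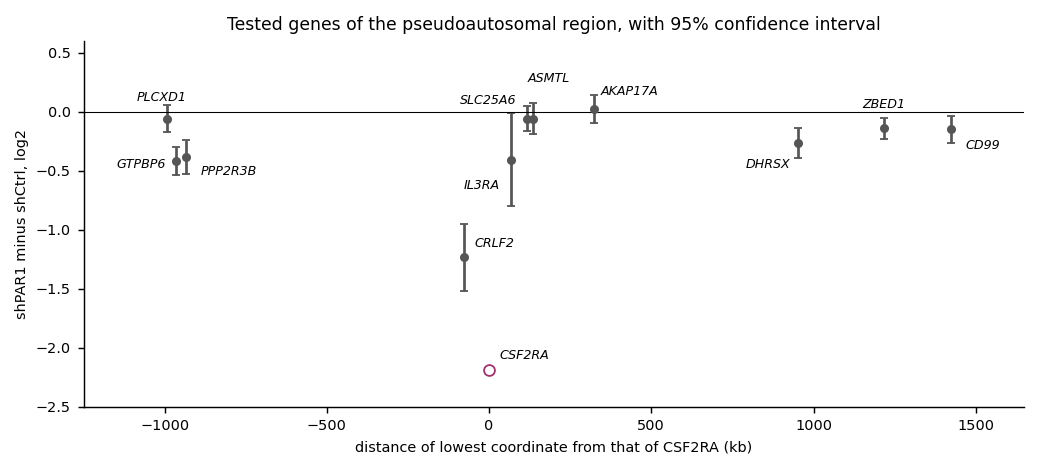
Difference between shPAR1 and shCtrl (log2) of the 12 tested genes listed for the pseudoautosomal region, with 95% confidence intervals. The horizontal axis is the distance of each gene's lowest coordinate from that of CSF2RA in kb. CSF2RA (-2.19, open symbol, no interval because it was chosen for its fall) and CRLF2 (-1.24) lie lowest, and the remaining 10 genes lie between -0.42 and 0.021.

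Among the signal transducers, STAT3 rose. STAT3 lies on chromosome 17 (42313324 to 42388540, minus strand), and its level was 12.00, 12.08, 12.04, 12.02 and 11.99 in shPAR1 and 11.62, 11.66, 11.67, 11.71 and 11.72 in shCtrl libraries. The lowest shPAR1 library stood above the highest shCtrl library. The rise was 0.35 (95% confidence interval 0.27 to 0.43, standard error 0.037, adjusted p = 5.65e-07), or 27.4% in the mean normalized count. These values are RNA levels and do not measure phosphorylation of STAT3.

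The kinases and the other STAT genes moved in both directions. JAK1, the kinase that gp130 depends on most, fell by 0.36 (standard error 0.037, adjusted p = 3.95e-07), with shCtrl libraries at 11.91 to 12.05 and shPAR1 libraries at 11.60 to 11.63. TYK2 (0.20, standard error 0.053) and JAK3 (0.67, standard error 0.10) rose, and JAK2, the kinase of the GM-CSF receptor, had a difference of -0.038 that did not pass (95% confidence interval -0.22 to 0.15). STAT2, a factor of interferon signalling, rose by 0.41. STAT5A fell by 1.64 (standard error 0.085, adjusted p = 4.38e-11), with 114 to 210 counts per shPAR1 library and 426 to 584 per shCtrl library, and STAT5B fell by 0.45 (standard error 0.041). The STAT5 genes are near-identical copies and short reads may be split between them, so each value is uncertain, though both fell. The ratio of STAT3 to STAT5A per length was 13.7 to 19.0 in shPAR1 and 3.90 to 4.18 in shCtrl libraries, and that of STAT3 to JAK1 was 1.57 ± 0.037 (SD, n = 5) and 0.957 ± 0.020.

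SOCS3, the inhibitor that STAT3 induces, moved opposite to STAT3. It lies on chromosome 17 (78356778 to 78360077, minus strand), and its level was 8.94, 9.16, 9.30, 9.18 and 9.10 in shPAR1 and 9.96, 9.97, 9.99, 9.99 and 9.96 in shCtrl libraries. The shCtrl libraries lay close together (SD 0.015, n = 5), while the shPAR1 libraries spread more widely (SD 0.13, n = 5) and all lay below them. SOCS3 fell by 0.84 (95% confidence interval -0.96 to -0.72, standard error 0.058, adjusted p = 2.36e-09), or 43.9% in the mean normalized count. The ratio of SOCS3 to STAT3 per length was 0.554 ± 0.046 (SD, n = 5) in shPAR1 and 1.26 ± 0.032 in shCtrl cells, without overlap. On this scale SOCS3 exceeded STAT3 in every shCtrl library and in no shPAR1 library. Which gene was higher depends on the exon lengths used (2734 bases for SOCS3 and 11208 for STAT3, all annotated exons). By counts STAT3 was higher in both groups (17705 against 5438 in shCtrl, 19906 against 2695 in shPAR1).

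The promoter window of the upstream SOCS3 start in RefSeq is printed because the gene is a STAT3 target that fell while STAT3 rose. Neither this window nor that of the second start (chr17:78359668-78359917) held the motif. Both windows miss the bases just before 78360077, the 5′ end of the gene in GENCODE, so that stretch was not searched.
SOCS3 (chr17:78360926-78361175, minus strand): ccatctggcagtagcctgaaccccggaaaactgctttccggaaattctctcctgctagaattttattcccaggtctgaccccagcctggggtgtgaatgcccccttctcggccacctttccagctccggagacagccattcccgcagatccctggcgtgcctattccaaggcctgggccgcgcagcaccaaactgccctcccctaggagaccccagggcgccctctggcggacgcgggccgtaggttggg

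Of the 7 tested genes of the SOCS family, SOCS3 alone fell, none rose and 6 did not pass. SOCS1, another inhibitor of JAKs, had a difference of -0.31 (95% confidence interval -0.73 to 0.10), SOCS2 one of 0.15 (-0.033 to 0.34) and SOCS5 one of 0.12 (-0.052 to 0.30). Without library 9, 1 gene of the family rose. CISH, a STAT5 target, lay below the filter, with 20 counts in all shPAR1 and 26 in all shCtrl libraries. Of 14 tested genes for other brakes and adaptors of the pathway, 2 rose, 7 fell and 5 did not pass, with a median of -0.075. Among all tested genes 40.9% passed. Without library 1 the number that rose was 4, and without library 3 it was 1. CBL, a ubiquitin ligase of activated receptors (-0.45, standard error 0.036), the phosphatase PTPN1 (-0.29, standard error 0.044) and PIAS2 (-0.26, standard error 0.073), an inhibitor of STAT factors, fell most. PIAS1 rose by 0.20 and the adaptor GRB2 by 0.12, and the call of GRB2 was lost without library 3 (adjusted p = 0.0546).

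**Figure D4:**
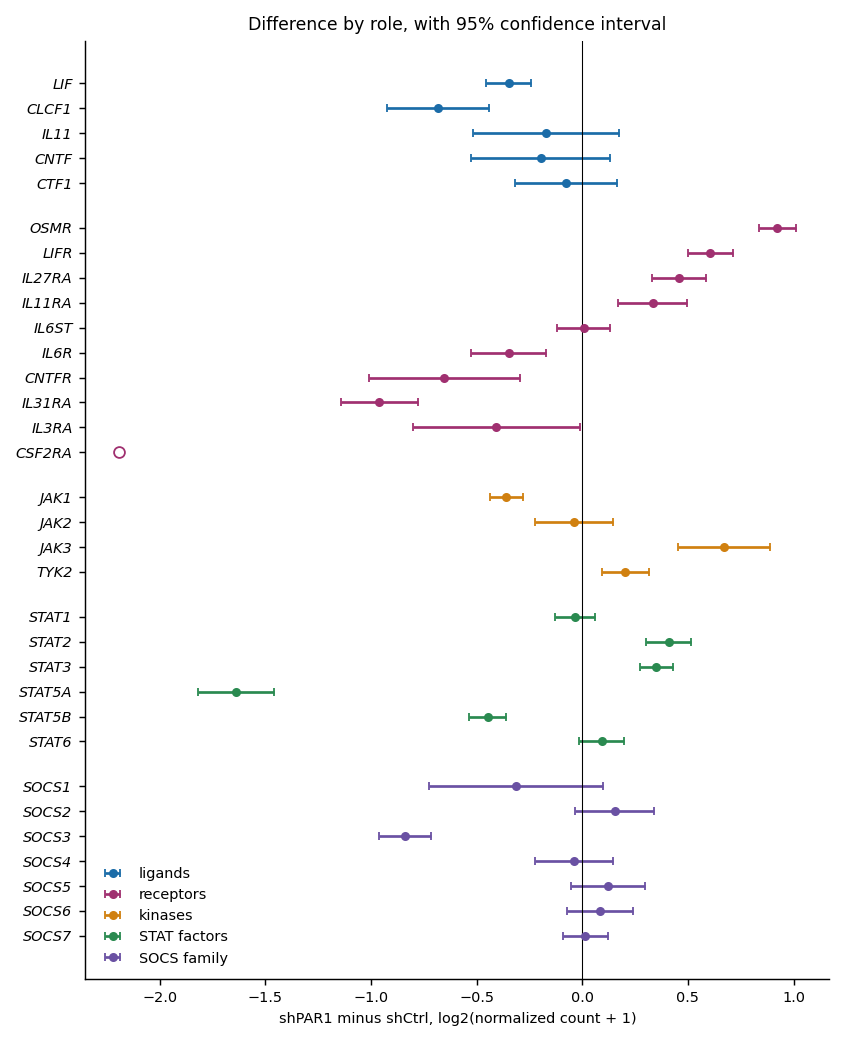
Difference between shPAR1 and shCtrl in log2(normalized count + 1) for the ligands, receptors, kinases, STAT factors and SOCS genes of the pathway, with 95% confidence intervals from limma. OSMR (0.92) and LIFR (0.60) lie furthest right among the receptors, SOCS3 (-0.84) is the one gene of its family that passed the test, and CSF2RA (-2.19) is drawn as an open symbol without an interval because it was chosen for its fall.

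The genes that cut receptors from the cell surface, a step that turns IL6R into its soluble form, were measured as a group of 5. ADAM17, the main sheddase of IL6R (0.25, standard error 0.043), and RHBDF1, which carries ADAM17 to the surface (0.31, standard error 0.064), rose. FRMD8, which stabilizes that complex, fell by 0.89 (standard error 0.045, adjusted p = 3.06e-11), and ADAM10 and RHBDF2 did not pass.

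Known STAT3 target genes moved in both directions. Of 20 tested genes 8 rose, 8 fell, SOCS3 included, and 4 did not pass, with a median of 0.030. Over all tested genes, 19.0% rose and 21.9% fell. The kinase gene PIM1 (0.62, standard error 0.076) and the angiogenic factor gene VEGFA (0.58, standard error 0.038) rose. CEBPD (0.58, standard error 0.22, adjusted p = 0.0449) also rose, but its call was lost in 8 of 17 alternatives (adjusted p = 0.0558 to 0.12). FOS (-1.36, standard error 0.12) and PIM2 (-0.58, standard error 0.043) fell beside SOCS3. The 11 acute-phase and related genes of this list, such as CRP and SAA1, were not analysed here.

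Genes of the NF-kB pathway, a known input to the transcription of IL6 and LIF, also moved in both directions. Of 11 tested genes 2 were higher, 5 lower and 4 not past the threshold (median -0.15). For comparison, 19.0% of all tested genes were higher and 21.9% lower. Under upper quartile scaling, and without library 1 or 8, 3 were lower. NFKBIZ, a co-regulator of IL6 transcription (0.53, standard error 0.098), and the IL-1 receptor gene IL1R1 (0.39, standard error 0.062) rose. RELB (-0.34, standard error 0.081) and NFKB2 (-0.20, standard error 0.059) fell. NFKBIA (-0.18, adjusted p = 0.0271) fell as well, but its call was lost in 4 of 17 alternatives (adjusted p = 0.0575 to 0.0836). Among 7 other tested class I cytokine receptor genes, IL13RA1 rose by 0.42, CRLF2 and IL15RA (-0.41) fell and 4 did not pass, and without library 5 the number that rose was 2.

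Tested genes within 250 kb of each member were then listed, a window chosen after the values were seen. At the same threshold 19.0% of all tested genes rose and 21.9% fell. OSMR and LIFR are neighbours with opposite strands, and OSMR-DT, which lies between them, had a difference of 0.40 that did not pass (adjusted p = 0.179), while RICTOR, which overlaps the far end of OSMR, rose by 0.21 (adjusted p = 0.0252). STAT3 is adjacent to STAT5A and STAT5B, which fell, and to CAVIN1 (-0.87, standard error 0.050) and ATP6V0A1 (0.64, standard error 0.050), and of 21 tested genes in its window 3 rose and 6 fell. IL6ST has IL31RA (-0.96) as its nearest tested neighbour. Of 10 tested genes near SOCS3, 2 rose and 2 fell, and SOCS3-DT had a difference of 0.28 that did not pass (adjusted p = 0.439). Of 11 tested genes near LIF 2 rose and none fell. Near IL6R 4 of 8 tested genes rose and 1 fell, and near IL11 4 of 28 rose and 6 fell. Near CSF2RA none of 6 tested genes rose and 1 (CRLF2) fell.

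The genes whose levels followed those of CSF2RA and SOCS3 most closely were named by Pearson's correlation of log2 values over the 10 libraries. The points share libraries and the contrast between groups, so the coefficients are a description only. The genes were picked by this correlation, which also favours high values within groups, so those values add no separate evidence. For CSF2RA they were PAK1 (r = 0.998), a kinase that acts on the actin cytoskeleton, OCIAD2 (0.995), the adaptor SH3KBP1 (0.994), glutamine synthetase GLUL (0.994) and the actin-associated PDLIM1 (0.993). Within groups, once group means were removed, these coefficients were 0.839 to 0.946. For SOCS3 they were EIF4A3 (0.996), an RNA helicase of the exon junction complex, CAVIN1 (0.996), a caveolar coat protein, BMERB1 (0.995), the mitochondrial ribosomal gene MRPS2 (0.995) and PDLIM1 (0.995), with 0.861 to 0.937 within groups. PDLIM1 was named for both genes, with a difference of -0.94.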

How the data were processed

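RNA was measured by sequencing of 10 PANC-1 libraries depleted of ribosomal RNA. Per the submitters' processing notes, the authors used FastQC 0.11.5, Trimmomatic 0.36, HISAT2 2.1.0 with GRCh38, HTSeq for counting and DESeq2. Neither annotation release nor strand setting is stated. The deposited values are on a log2 scale, as the count over a library's size factor plus 1. Undone, every value lay within 0.0011 of a whole count. Of 27884 genes, 27361 matched GENCODE 44, which gave coordinates and exon lengths.

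The members and gene lists were chosen with earlier results of these data known. A gene of the receptor list is not reported here. The test was limma 3.58.1 (R 4.3.3, linear model with trended prior variance, two-sided, Benjamini-Hochberg at 0.05) on the deposited log2 values, for genes that reached a normalized count of 10 in 5 or more libraries. The step was run on simulated data with a common spread setting and far fewer changed genes than were called here. How it performs at the share called here was not tested. A pseudocount of 1 understates changes of low genes. Levels per length (TPM) are counts per kilobase of exon, rescaled to the same total in every library.

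The named genes were all members, F2R, up to 3 genes with the largest rise and 3 with the largest fall past the threshold in each list with a mean of at least 1 CPM, defining markers, and the 5 genes most correlated with CSF2RA and with SOCS3. Others stand beside them to show a list's spread and were chosen after their values were seen. Alternatives were voom weights, no filter, a floor of 1 CPM in all libraries of either group, a pseudocount of 5, size factors without mitochondrial genes, upper quartile scaling, quantile normalization, and each library left out in turn. Tables were made with Python 3.11.15, pandas 2.3.3 and numpy 2.4.6.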

Additional observations from a re-analysis of the deposited data

Results flagged for a closer look

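Within the groups of 5 libraries, a library that stood apart from the other 4 was sought for 52 named genes with Dixon's criterion (gap over range above 0.71), which gave 4 of 104 groups, where chance flags about 1 in 20 groups. None of these was CSF2RA or one of its 8 family companions. KRT18, a ductal keratin gene, was lowest in library 1 of shPAR1 at 12.96, with the other 4 at 13.20 to 13.23. THY1, a stromal surface marker, was lowest in library 1 of shPAR1 at 9.11, against 9.31 to 9.37, and in library 8 of shCtrl at 9.92, against 10.06 to 10.10. TYK2, a Janus kinase gene, was lowest in library 6 of shCtrl at 9.57, against 9.75 to 9.83.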

How the results depend on the processing

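In all 17 alternatives the differences of CSF2RA (-2.29 to -2.00), OSMR (0.90 to 0.98), LIFR (0.57 to 0.65), STAT3 (0.34 to 0.40), SOCS3 (-0.88 to -0.79), LIF (-0.38 to -0.31) and IL6R (-0.41 to -0.30) kept their direction, and the 6 that were tested stayed past the threshold. CSF2RA was chosen for its fall in these same libraries, so its kept direction adds no evidence. IL11 never passed (-0.27 to -0.088). IL6ST never passed either, and its sign turned without replicate 1 (-0.021), 5 (-0.029), 8 (-0.020) or 9 (-0.013), a range of -0.029 to 0.049 over the libraries left out. Over other named genes, 701 of 714 values kept their direction and call, 13 lost the call (CEBPD, NFKBIA and GRB2) and none turned.

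Counts in lists moved in few settings. In the GM-CSF receptor family 1 gene fell under quantile normalization, and 0 to 1 over the libraries left out (1 without replicate 2). In the SOCS family 0 to 1 rose (1 without replicate 9), and among brakes and adaptors 1 to 4 rose (4 without replicate 1, 1 without replicate 3). In the NF-kB list 3 fell under upper quartile scaling and 3 to 6 over the libraries left out (3 without replicate 1 or 8). With no filter, 1 pseudoautosomal gene and 3 other class I receptor genes rose, and of the latter 1 to 2 rose over the libraries left out (2 without replicate 5). The cause was not tested. Upper quartile scaling raised the share of upward calls from 46.4% to 55% and the median difference to 0.034. Genes with low counts, such as CSF2RA, IL11, IL3RA and CRLF2, have the widest errors. No paired analysis was possible because the groups share no replicate numbers (1 to 5 and 6 to 10).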
